A study of Mus musculus with 2 samples.

Results

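Trefoil factors and the secretory genes of the stomach were followed in colon RNA of C3 KO and WT mice. The 10 genes were Tff1, Tff2 and Tff3, the gastric gland mucin Muc6, the gastrokines Gkn1, Gkn2 and Gkn3, the proton pump subunits Atp4a and Atp4b, and the pepsinogen Pgc. They were chosen by symbol among the 33793 transcript clusters of the main category, which carry 30921 gene symbols, and each had 1 cluster. They were picked in part because Tff2 was far lower in the C3 KO array, so its value describes how it was chosen and is not a finding. The C3 KO mice, on an FVB background, and the FVB WT mice were 16 weeks old and untreated, and both genotypes came from crosses of mice heterozygous for C3. Each genotype is represented by 1 array, so no difference was tested, and the values show no spread between mice. The methods do not state the sex of the mice. The study lists the Y-linked genes Eif2s3y, Uty, Kdm5d and Ddx3y as higher in C3 KO and the inactive X transcript Xist as lower. A difference of sex therefore cannot be told apart from one of genotype here. The sources used here do not say how many mice each RNA sample came from, nor how C3 was inactivated. The records call the tissue distal colon, while their extraction step and the methods call it mid colon.

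Trefoil factors are small secreted peptides folded around a trefoil domain, which disulfide bonds hold together, and they are released with mucus and help the epithelium close over wounds. In the mouse gut, Tff1 belongs to the surface mucous cells of the stomach, Tff2 to the mucous neck and antral gland cells of the stomach and to the Brunner glands of the duodenum, and Tff3 to the goblet cells of the intestine. Muc6 is the mucin secreted by the same gland cells as Tff2. Gastrokines are secreted proteins of the gastric mucosa that carry a BRICHOS domain. Atp4a and Atp4b are the catalytic and the glycosylated subunits of the pump with which parietal cells acidify the stomach, and Pgc encodes pepsinogen C, the precursor of an acid protease.

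Promoter sequences of RefSeq on GRCm38.p6, each with 250 bases before the gene start and 50 after it, were available for 6 of the 10 genes. None was available for Tff1, Tff2, Tff3 or Atp4b, so these were not searched. Those of Muc6 and Gkn3, which were lower in the C3 KO array, are shown with those of Gkn1 and Gkn2, the neighbors of Gkn3 that stayed within 1.5-fold. Capitals mark GATAA or, on the other strand, TTATC, the core that GATA factors of the gut epithelium recognize. The motifs were chosen after the sequences were seen.
Muc6, chr7:141655344-141655643, minus strand: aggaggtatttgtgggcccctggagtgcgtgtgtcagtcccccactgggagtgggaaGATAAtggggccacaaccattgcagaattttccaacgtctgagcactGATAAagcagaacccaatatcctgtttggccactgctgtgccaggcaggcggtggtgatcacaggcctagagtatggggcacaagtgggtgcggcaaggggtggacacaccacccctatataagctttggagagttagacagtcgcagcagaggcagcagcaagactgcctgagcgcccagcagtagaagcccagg
Gkn3, chr6:87388886-87389185, minus strand: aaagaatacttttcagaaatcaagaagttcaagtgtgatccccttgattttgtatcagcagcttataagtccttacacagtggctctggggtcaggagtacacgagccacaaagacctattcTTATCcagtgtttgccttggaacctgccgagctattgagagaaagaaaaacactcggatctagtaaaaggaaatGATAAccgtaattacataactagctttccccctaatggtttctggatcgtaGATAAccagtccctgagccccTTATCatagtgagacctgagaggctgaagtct
Gkn1, chr6:87350866-87351165, minus strand: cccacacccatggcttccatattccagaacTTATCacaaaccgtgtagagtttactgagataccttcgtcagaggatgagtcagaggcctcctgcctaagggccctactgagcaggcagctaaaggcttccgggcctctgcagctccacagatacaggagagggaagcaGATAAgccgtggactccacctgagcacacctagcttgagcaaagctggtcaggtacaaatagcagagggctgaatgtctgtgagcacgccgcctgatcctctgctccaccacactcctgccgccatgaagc
Gkn2, chr6:87373115-87373414, plus strand: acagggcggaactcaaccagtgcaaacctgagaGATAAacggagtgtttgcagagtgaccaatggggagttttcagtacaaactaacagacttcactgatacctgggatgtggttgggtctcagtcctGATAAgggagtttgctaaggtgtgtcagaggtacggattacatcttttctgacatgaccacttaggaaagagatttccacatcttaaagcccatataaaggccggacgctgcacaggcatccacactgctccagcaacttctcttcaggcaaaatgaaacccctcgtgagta
Searched on both strands, GATAA was present in 4 of the 6 promoters (Muc6, Gkn1, Gkn2 and Gkn3) and in 25.4% of all 32851 promoters of the table. It occurred 2 times in Muc6, 4 times in Gkn3, 2 times in Gkn1 and 2 times in Gkn2, so that genes past 1.5-fold and genes within it both carried it. TATAA was present in Muc6, Gkn2, Gkn3 and Pgc (24.9% of all promoters). In Muc6 it started 28 bases before the gene start, in Gkn2 29 and in Pgc 31. In Gkn3 it lay farther off, at 187 bases and, on the other strand, 188 bases before the gene start. TGTTTGC, a core of forkhead factors, was present in Gkn2, Gkn3 and Atp4a, against 5.07% of all promoters. No match of 1 motif overlapped a match of another in these genes. The matches describe the letters in these windows only.

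The levels are the log2 values that the authors obtained by RMA, in which background is removed, the arrays are quantile normalized and the probes of a cluster are summarized, so a difference of 1 is a 2-fold difference. Each difference is that of C3 KO from WT, with C3 KO minus WT as its sign, and 1.5-fold corresponds to 0.58 on this scale. The targeted gene C3, the central complement component, had a level of 6.80 in the C3 KO array and 8.15 in the WT array, 2.54-fold lower in C3 KO. A higher level in C3 KO by 1.5-fold or more was found for 3.66% of all main clusters and a lower level for 3.82%, together 7.48%. At 2-fold, 0.678% were lower. The median difference over all main clusters was 0. The 23 background probe sets, which match no mouse transcript, had a median of 3.99 in the C3 KO array (range 1.48 to 8.11) and 4.20 in the WT array (range 1.45 to 8.56). Levels of different genes depend on their probes and do not rank amounts of RNA. The number of arrays limits the precision.

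Of the trefoil factors, Tff2 was lower in the C3 KO array, and Tff1 and Tff3 were close in both arrays. Tff2 had a level of 5.45 in the C3 KO array and 8.89 in the WT array. This difference of -3.44 is 10.8-fold and was the 40th lowest of the 33793 main clusters. In the C3 KO array 9 of the 23 background sets lay above Tff2, and in the WT array 0 did, so the WT signal stood clear of background, the C3 KO signal did not, and the size of the fold is not exact. Tff3, the intestinal trefoil factor, was bright in both arrays, at 11.54 in C3 KO and 11.39 in WT, a difference of 0.16. Tff1 had 5.61 in C3 KO and 5.42 in WT, a difference of 0.19, at levels that 9 and 10 background sets exceeded. In tissue RNA, fewer cells of a type and less RNA per cell cannot be told apart.

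**Figure D1:**
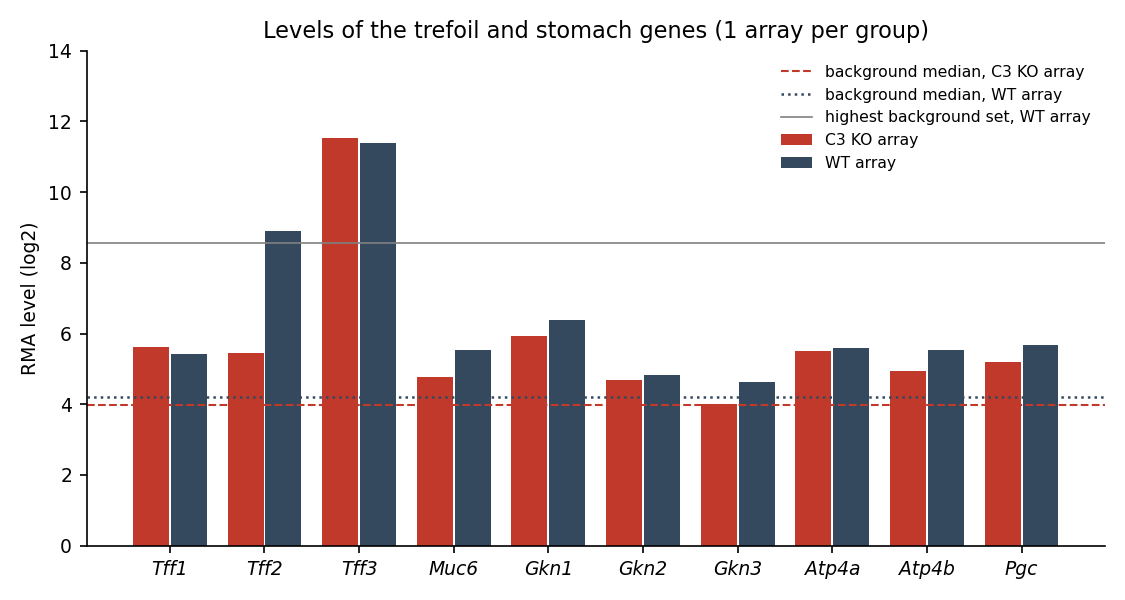
RMA level (log2, vertical axis) of the 10 genes in the C3 KO array (red bars, left of each pair) and the WT array (dark blue bars), with 1 array per group and no error bars. The dashed and dotted lines are the medians of the 23 background probe sets (3.99 in C3 KO and 4.20 in WT), and the grey line is the highest background set of the WT array (8.56), which Tff3 exceeds in both arrays and Tff2 in the WT array.

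The mucin of the gastric glands and the gastrokines were dim, and all 4 had lower levels in C3 KO, 2 of them past 1.5-fold. Muc6 had a level of 4.76 in C3 KO and 5.54 in WT, 1.72-fold lower in the C3 KO array. Gkn3, the gastrokine that humans carry as a pseudogene, had 4.004 in C3 KO and 4.64 in WT, 1.56-fold lower, and its C3 KO level was almost equal to the background median of 3.99. Gkn1, a secreted protein of the surface mucous cells, had 5.93 in C3 KO and 6.37 in WT, a difference of -0.44. Gkn2, whose human protein is bound to TFF1 by a disulfide bond, had 4.68 in C3 KO and 4.82 in WT, a difference of -0.14. The 2 gastrokines within 1.5-fold lie beside Gkn3, and the 3 genes together span 43.3 kb of chromosome 6.

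The genes of acid and pepsinogen were dim as well, and Atp4b passed 1.5-fold by a narrow margin. Atp4b had a level of 4.93 in C3 KO and 5.53 in WT, a difference of 1.51-fold, lower in C3 KO, and was the last gene to pass the threshold. Its partner subunit Atp4a had 5.51 in C3 KO and 5.59 in WT, a difference of -0.08. Pgc, with 5.20 in C3 KO and 5.68 in WT, was the nearest gene that did not pass, at a difference of -0.48. After loess centring, which removes the trend of differences with level, Atp4b (-0.54) and Gkn3 (-0.58) no longer passed 1.5-fold. The 2 subunits of 1 enzyme differed by unequal amounts at levels that 9 or 10 of the 23 background sets exceeded.

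Counted over the 10 genes, 4 had a level in C3 KO that was lower by 1.5-fold or more and 0 had a higher one, beside 3.82% and 3.66% of all main clusters, and 1 passed 2-fold, beside 0.678%. Because the genes were picked with this contrast in view, nothing is read from these shares. The difference was below 0 for 8 of the 10, and for 48.4% of all main clusters. The median difference was -0.46, or -0.44 for the 9 genes without Tff2. The 8 genes other than Tff2 and Tff3 had levels of 4.004 to 5.93 in the C3 KO array and 4.64 to 6.37 in the WT array, inside the range of the background sets in both. Among the 13394 main clusters with a mean level of 4 to 6, which hold 7 of the 10 genes, 4.82% were lower by 1.5-fold or more, against 1.65% of those averaging at least 6. In the dimmer window the median difference was -0.06 and 55.7% were below 0. Background sets themselves had a lower median in the C3 KO array. Loess centring, which removes the trend of differences with level, moved the differences of the 10 genes by at most 0.0649. The part of background signal in the small differences of the dim genes was not tested.

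**Figure D2:**
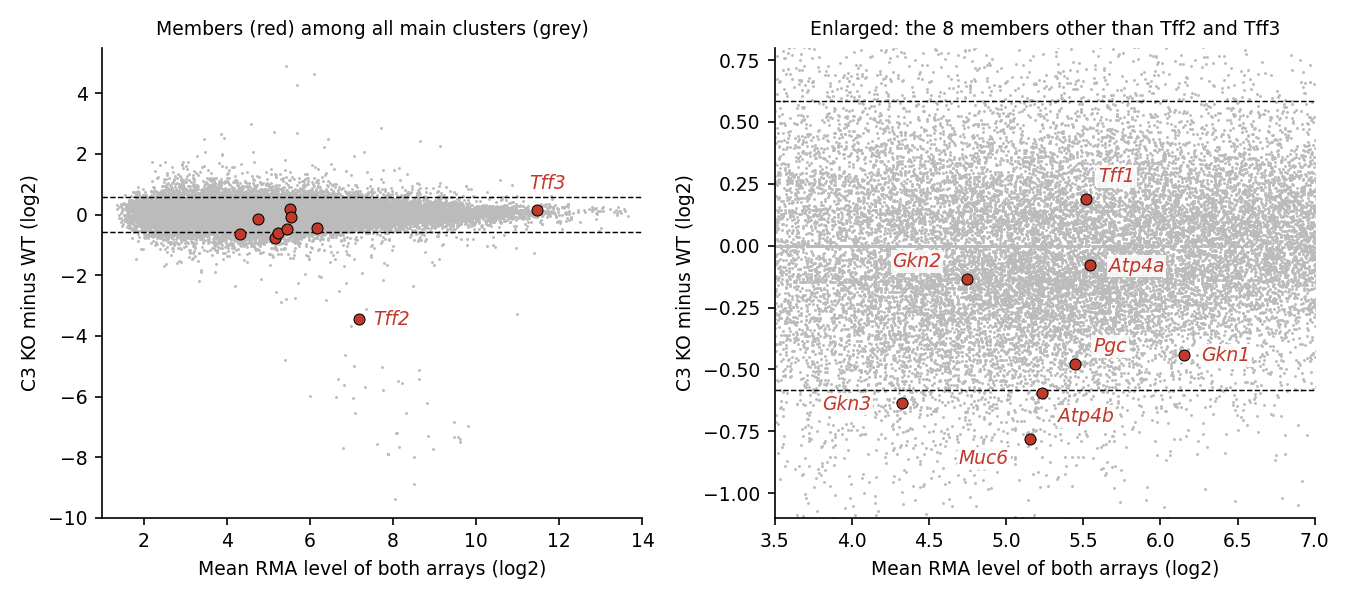
Difference C3 KO minus WT (log2, vertical axis) against the mean level of both arrays (log2, horizontal axis) for all 33793 main clusters (grey points) and the 10 genes (red points), in full on the left and enlarged around the 8 dim genes on the right. Dashed lines mark 1.5-fold, a difference of 0.58 in size. Tff2 lies apart at -3.44, and the other 9 genes lie within the cloud of main clusters.

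The trefoil genes stand next to each other on the minus strand of chromosome 17 of GRCm38, in the order Tff3 (31125306 to 31129646), Tff2 (31141049 to 31144282) and Tff1 (31161396 to 31165053), and together they span 39.7 kb. The low value of Tff2 was not shared by the clusters around it, but most of these were too dim in WT to show such a fall. Of these clusters, only Tff3 at 11.39 and Slc37a1 at 9.40 exceeded the highest background set of the WT array, 8.56. Of the 10 other main clusters that start within 200 kb of Tff2, 0 were at least 1.5-fold higher and 1 was lower. Of all main clusters, 3.66% were higher and 3.82% lower. The lower neighbor was Umodl1, a uromodulin-like gene, at 4.54 in C3 KO and 5.18 in WT. Abcg1, a sterol exporter, had 7.08 in C3 KO and 6.52 in WT, a difference of 0.56, the highest of the neighborhood. The cluster LOC102631757, which starts between Tff2 and Tff1, had 5.64 in C3 KO and 5.76 in WT, and the protease gene Tmprss3, beyond Tff1, had 4.80 in C3 KO and 5.23 in WT. Slc37a1, a sugar-phosphate transporter and the brightest neighbor besides Tff3, had 9.49 in C3 KO and 9.40 in WT. Rsph1, a gene of ciliary radial spokes, differed by -0.29, and Ubash3a, a regulator of T cell signaling, and Gm25447 had the same value in both arrays, as did 3.12% of all main clusters. C3 lies on the same chromosome, 26.0 Mb beyond Tff1, with Pgc (47726842 to 47734483) between them. Of the 1498 main clusters of chromosome 17, Tff2 had the 3rd lowest difference. Below it were Pdia2 (4.47 in C3 KO and 10.16 in WT), a disulfide isomerase of the pancreas, and Clps (5.91 in C3 KO and 11.34 in WT), the cofactor of pancreatic lipase.

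**Figure D3:**
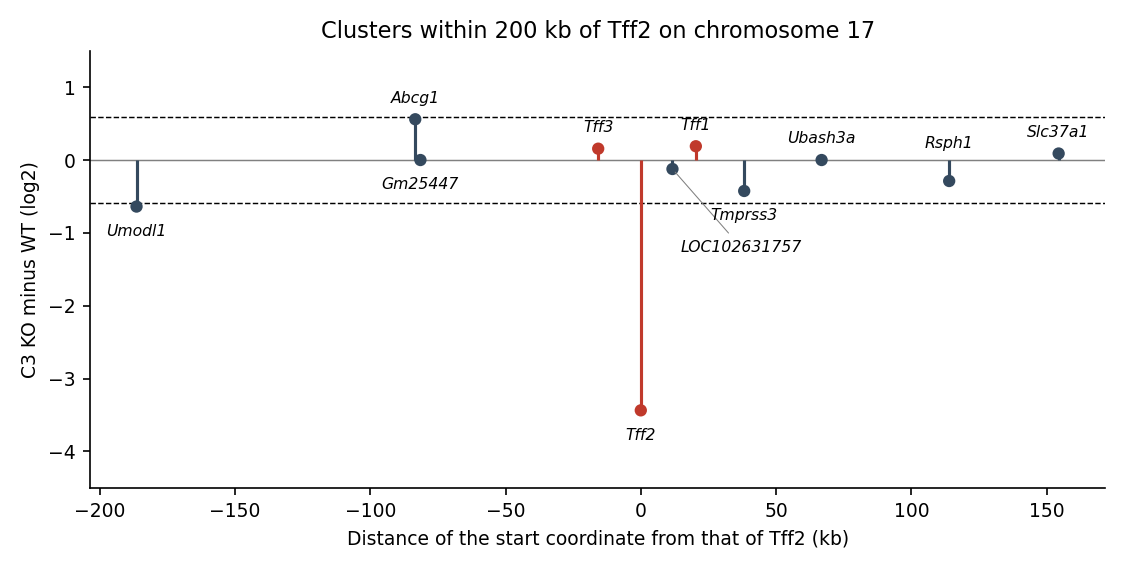
Difference C3 KO minus WT (log2, vertical axis) of Tff2 and the 10 main clusters that start within 200 kb of it, placed by the distance of their start from that of Tff2 (kb, horizontal axis), with trefoil genes in red and others in dark blue. Dashed lines mark 1.5-fold. Tff2 stands at -3.44, while the 10 neighbors lie between -0.64 and 0.56. Of the neighbors, only Tff3 and Slc37a1 exceeded the highest background set of the WT array.

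Around the other genes, of which Pgc alone shares chromosome 17 with the trefoil genes, some neighbors passed 1.5-fold. So did 7.48% of all main clusters, and nothing is read from these small counts. Muc6 (chromosome 7, 141633972 to 141655319, minus strand) has the colonic mucin gene Muc2 and Muc5ac on the same side of it. Of 15 clusters that start within 200 kb of Muc6, 1 was lower and 0 were higher at 1.5-fold. Gkn3 (chromosome 6, 87383268 to 87388935, minus strand) had 6 such neighbors, Gkn1 and Gkn2 among them, and 0 passed 1.5-fold. Of the 14 neighbors of Pgc, 1 was lower. Atp4a (chromosome 7, 30712209 to 30725535, plus strand) had 31 such neighbors, of which 1 was higher and 2 were lower, and Atp4b (chromosome 8, 13386209 to 13396778, minus strand) had 12, all within 1.5-fold. All 10 clusters overlap the RefSeq gene of their symbol on GRCm38.p6, hold 14 to 37 probes and are annotated as matching a single locus.

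Some genes of other gastric cells passed 1.5-fold, as did 7.48% of all main clusters. Most of the gastric genes were too dim in WT to show a difference of the size of Tff2's. In the WT array, 2 of 46 (Ctse and Aqp4) lay above the highest background set. Over 7 lists of further stomach genes, 1 of 46 genes passed 1.5-fold upward in C3 KO, 3 passed it downward and 42 did not pass it (median difference -0.12). The higher gene was Ctse, the intracellular aspartic protease cathepsin E of surface mucous cells, at 9.51 in C3 KO and 8.81 in WT. The 3 lower genes were Bhlha15, a transcription factor of secretory cells that chief cells share with pancreatic acinar cells (5.30 in C3 KO and 5.98 in WT), and Chia1, a chitinase, and Krt6a, a keratin, neither of which exceeded the background median of either array. Of 10 genes of the surface mucous cells, 1 was higher and 0 were lower, with Muc5ac, their secreted mucin, at 4.59 in C3 KO and 4.86 in WT. A4gnt, the transferase that caps the glycans of Muc6, had 7.20 in C3 KO and 7.52 in WT. All 5 chief cell genes had a difference below 0 (median -0.46), at levels of 2.59 to 5.30 in C3 KO and 3.29 to 5.98 in WT, and the gastric lipase Lipf and the intrinsic factor gene Gif were among those within 1.5-fold. Of these 5 genes, 2 did not exceed the background median of either array. All 11 further parietal cell genes, all 5 gastric endocrine genes and all 6 transcription factors of the stomach stayed within 1.5-fold. Gast, which encodes gastrin, differed by 0.42, and Pdx1, a transcription factor of antrum, duodenum and pancreas, had 5.94 in C3 KO and 6.06 in WT. Several of these genes, such as the potassium channel Kcnq1 (8.16 in C3 KO and 8.20 in WT) and the water channel Aqp4 (11.87 in C3 KO and 11.81 in WT), are expressed in the colon too.

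Of 8 molecules that trefoil factors are known to meet, 7 had a difference below 0 (median -0.31) and 1 passed 1.5-fold. Of all main clusters, 48.4% were below 0 and 7.48% passed 1.5-fold. Dmbt1, a mucosal scavenger protein that binds trefoil factors in pigs and humans, had 9.90 in the C3 KO array and 10.92 in the WT array, 2.03-fold lower, and was the 1 of 8 receptors and partners past 1.5-fold. Cxcr4, the chemokine receptor that the deposited annotation lists for Tff2 binding, had 6.90 in C3 KO and 6.65 in WT, and Ackr3 had 6.04 in C3 KO and 6.11 in WT. Fcgbp, whose human protein is linked to TFF3 in mucus, had 12.37 in C3 KO and 12.61 in WT. Lingo2, described as a receptor of Tff3, had 3.66 in C3 KO and 4.08 in WT, below the background median in both arrays. Muc2, the mucin with which Tff3 is stored in goblet cells, averaged 12.74 in C3 KO and 13.23 in WT over 2 clusters. Agr2, a disulfide isomerase needed for mucin assembly, had 11.02 in C3 KO and 11.40 in WT. Beside 3.82% lower and 3.66% higher of all main clusters, 2 of 9 goblet cell genes were at least 1.5-fold lower and 0 higher. These were Retnlb, an antimicrobial protein that the study itself names on these arrays (10.74 in C3 KO and 12.02 in WT), and Spdef, a transcription factor of goblet cell maturation (7.34 in C3 KO and 8.02 in WT). The goblet cell list had a median difference of -0.27, and 7 of its 9 genes were below 0.

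Markers of other tissues were counted beside all main clusters, of which 3.82% were lower and 3.66% higher by 1.5-fold or more. All 10 pancreatic acinar genes were lower in C3 KO by more than 1.5-fold, at levels of 3.36 to 6.31 in C3 KO and 11.39 to 13.30 in WT, with a summed linear signal of 357 in C3 KO and 67722 in WT. In C3 KO, 2 of them, Pnlip and Reg1, lay below the background median. The study named genes of this list from these same arrays, so this list is not independent evidence of its direction. Of 9 genes of the pancreatic duct, 1 was lower by 1.5-fold or more. It was Muc1, a membrane mucin also of gut epithelium (4.94 in C3 KO and 5.91 in WT), and the list median was -0.04. Of 6 duodenal genes 0 passed 1.5-fold, with a median of -0.07, although the iron reductase Cybrd1 (6.16 in C3 KO and 5.58 in WT) came close. In the WT array, 4 of the 9 duct genes and 0 of the 6 duodenal genes lay above the highest background set. Most of these genes were therefore too dim to show a fall of the size of Tff2's. Of 8 genes of the colon epithelium, 1 was higher, Hoxd13, a homeobox gene of the hindgut (8.33 in C3 KO and 6.27 in WT), and 1 was lower, Car1, a carbonic anhydrase of colonocytes (10.40 in C3 KO and 11.51 in WT). All 8 had levels of at least 8.13 in C3 KO and 6.27 in WT. In C3 KO all 8 lay above the highest background set, and in WT 5 did. The part of pancreatic tissue in the difference of Tff2 was not tested.

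**Figure D4:**
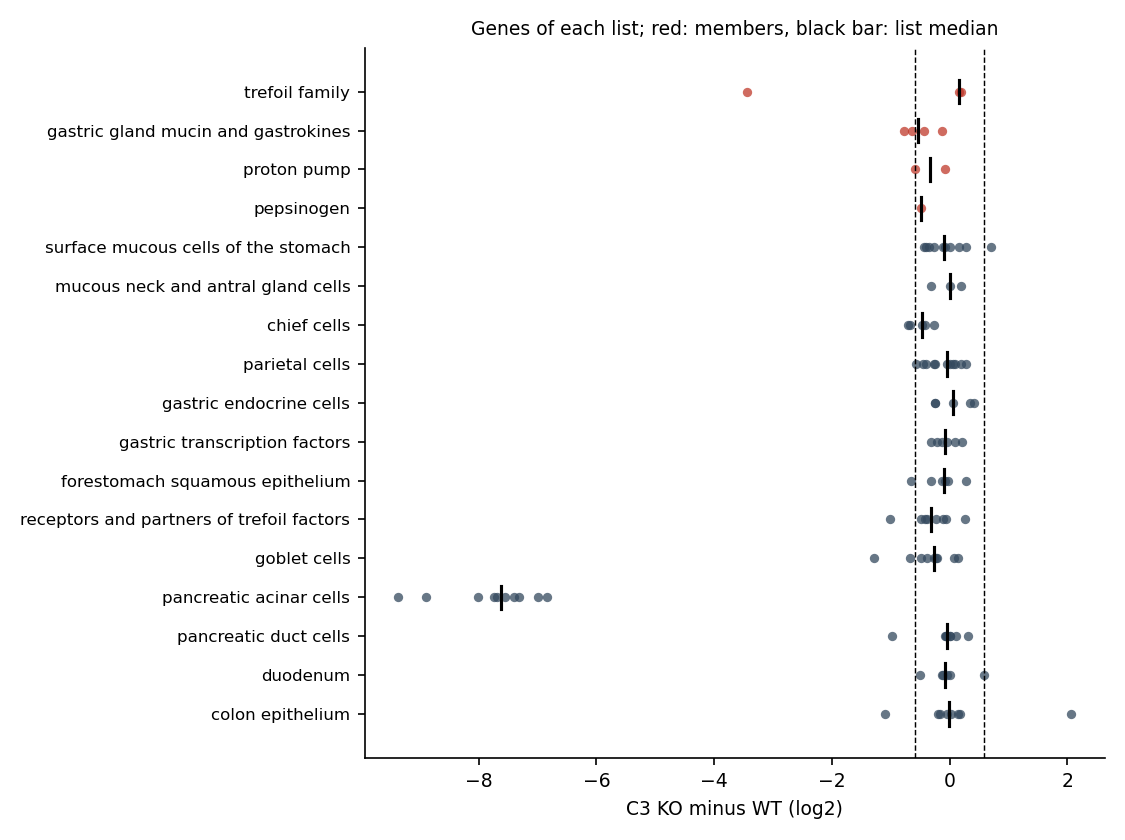
Difference C3 KO minus WT (log2, horizontal axis) of each gene (points) in the 4 groups of trefoil and stomach genes (red) and in 13 other lists of genes (dark blue), with the median of each list as a black bar and 1.5-fold as dashed lines. Tff2 and the 10 pancreatic acinar genes lie far to the left. The medians of the lists of further stomach genes (dark blue) lie between -0.46 and 0.06.

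The genes whose pair of levels lay nearest to that of Tff2, by Euclidean distance over the 2 arrays, were Cckar, Ang4, Vtn, Aqp12 and Cuzd1. Cckar, the cholecystokinin receptor of acinar cells, had 5.16 in C3 KO and 8.83 in WT, at a distance of 0.30. Ang4, an antimicrobial ribonuclease of the intestine, had 5.78 in C3 KO and 8.89 in WT, at a distance of 0.33. Vtn, which encodes vitronectin, had 5.45 in C3 KO and 7.96 in WT. Aqp12, a water channel of acinar cells, had 5.74 in C3 KO and 7.99 in WT, and Cuzd1, a protein of zymogen granules, had 4.53 in C3 KO and 9.16 in WT, at distances of 0.95 and 0.96. With 2 arrays and different probes, likeness means only that the 2 signals were close in number to those of Tff2, which were also the values it was chosen by.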

How the data were processed

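RNA of the colon was hybridized to Affymetrix Mouse Gene 2.0 ST arrays, 1 for C3 KO and 1 for WT. The authors normalized the signals with RMA at the gene level, using Affymetrix Power Tools (version not given in the sources used here), and deposited log2 values. The gene table and the series table hold identical values for all 41345 probe sets. The other deposited tables hold the authors' fold changes and enrichment statistics and were not used.

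Differences are C3 KO minus WT, per cluster, or per gene as the mean over its clusters. With 1 array per group no p-value was computed, and calls use 1.5-fold. The members and lists were chosen with earlier results of these data known. Named are all members, list genes past 1.5-fold, clusters within 200 kb of the trefoil genes, the 5 genes nearest to Tff2 in level, and C3. Of the pancreatic acinar list, only the genes below the background median in C3 KO were named. Other genes were named after their values were seen. Alternatives were centring on the median, loess centring (fraction 0.3), the series table, the brightest cluster, clusters matching 1 locus, minimum mean levels of 4 and 6, and 2-fold. Calls were tested on simulated data with changes larger than 1.5-fold, planted only in clusters with a mean level of at least 6. That test does not bear on the dimmer genes or on folds near 1.5. Clusters were compared with GRCm38.p6 by symbol. Promoters came from RefSeq (GRCm38.p6). Python 3.11.15, pandas 2.3.3, numpy 2.4.6 and statsmodels 0.14.6 were used.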

Additional observations from a re-analysis of the deposited data

How the results depend on the processing

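The count of trefoil and stomach genes lower in C3 KO by 1.5-fold or more, 4 as deposited, was 3 after centring on the array median, where Atp4b did not pass, and 2 after loess centring, where Tff2 (-3.47) and Muc6 (-0.73) passed and Gkn3 (-0.58) and Atp4b (-0.54) did not. It was 1 among clusters with a mean level of at least 6, which leaves out the dimmer genes, and 1 at 2-fold. The count of higher genes was 0 under all 8 alternatives. Of 63 recomputed differences of the 10 genes, 43 equal the deposited ones by construction, since each gene has 1 cluster that matches 1 locus and both tables hold the same values. The other 20, from the 2 centrings, moved by at most 0.0649, and none of them bears on the spread between mice. Of 220 recomputed counts over the 10 genes and 13 other lists, 13 moved by more than 1.5 times, 6 of them at 2-fold. No paired analysis was possible because each group has 1 array, and for the same reason no array could be left out. Of the 10 genes, 8 lay inside the range of the background sets in both arrays, and no spread between replicates is at hand to set their small differences against.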

Other observations

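Relatives of these genes by domain or by activity were looked up after the data were seen. Of all main clusters, 7.48% differed by 1.5-fold or more. The trefoil domain also occurs in the digestive glucosidases Sis and Mgam, the lysosomal glucosidase Gaa and the egg coat protein Zp1, and 0 of these 4 genes differed by 1.5-fold. Mgam, the bright one, had a level of 9.61 in C3 KO and 9.52 in WT, and Sis, the sucrase of the small intestine, had 3.64 in C3 KO and 3.59 in WT, below the background median in both arrays. Of 7 other genes with a BRICHOS domain, 0 differed by 1.5-fold, with Itm2b at 11.05 in C3 KO and 11.02 in WT.

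Atp12a, the catalytic subunit of the proton pump that the distal colon uses in place of the gastric one, had 9.26 in C3 KO and 10.28 in WT, 2.02-fold lower in the C3 KO array. Of 6 aspartic proteases related to Pgc, Ctse alone passed 1.5-fold. Muc5b, a further gel-forming mucin, had 4.88 in C3 KO and 5.44 in WT, a difference of -0.56. With 1 array per group, none of these differences has an error.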
